A study of Mus musculus with 18 samples.

Results

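Bulk RNA-Seq libraries of Peyer's patch (PP) B cells from OVA NP–treated and PBS-treated mice were compared. They are the 6 libraries, of 18 in the series, whose labels give PP as the tissue and PBS or OVA NPs as the treatment, with 3 libraries in each group. All mice were female BALB/cJ, a mouse strain often used in models of allergy, aged 10 to 12 weeks when tissue was taken. Every mouse had been sensitized to ovalbumin (OVA), the egg white allergen, by i.p. injection of 20 µg OVA with 1 mg of the adjuvant alum on days 0 and 14. Control mice then received 100 µL PBS i.v. on days 28 and 42, and treated mice received 2.5 mg of OVA NPs, polymer nanoparticles that encapsulate OVA, on the same days. A further group, given 100 µg of soluble OVA on those days, was not tested here, and the levels of its 3 PP libraries are shown beside some results. B cells were isolated on day 44, so all groups are sensitized and the control group is not a healthy one. PP cells were released with collagenase and DNase and the B cells were enriched by negative selection, in which other cells are bound by antibodies and held on a magnetic column. The labels call the 3 libraries of a group biological replicates and do not say whether each came from 1 mouse or a pool, so the *p* values measure the spread between these libraries.

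PPs are lymphoid follicles in the wall of the small intestine that sample antigen from the gut lumen. Their germinal centers, in which B cells divide and mutate their antibody genes, are active throughout life in response to gut microbes, and they are the main site at which B cells switch to IgA. The spleen, by contrast, filters the blood and forms germinal centers mainly after immunization, and particles given i.v. reach it directly.

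Each PP library held between 14177253 and 24385914 counts in the PBS group and between 21239188 and 22683083 in the OVA NP group. PBS replicate 2 was the shallowest, and 3 counts, taken as the lowest level that could be shown, corresponded to a CPM (counts scaled to library size) of 0.212 in it and to between 0.123 and 0.156 CPM in the other libraries of both groups (counting error only). All 12 genes of a B cell identity list were detected, with a median over genes of 136 CPM per kilobase of exon in PBS and 128 in OVA NP libraries. On the same scale the medians in PBS and OVA NP libraries were 0.694 and 1.34 for 15 T cell genes, 2.67 and 4.39 for 13 monocyte and macrophage genes, 0.557 and 1.88 for 14 mast cell genes, and 21.7 and 30.5 for 18 intestinal epithelial genes. The label thus matched its markers, and transcripts of other cells of the PP were present too.

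Libraries of the groups stood apart in overall measures, which are given here because they moved with treatment. Mitochondrially encoded genes took 7.67%, 5.41%, and 6.74% of the counts in PBS replicates 1 to 3 and 9.29%, 9.80%, and 9.08% in OVA NP replicates 1 to 3, so the groups did not overlap (difference of 2.78 percentage points, exact 2-sided permutation test, *p* = 0.1, the smallest *p* that 3 against 3 can give). Olfactory and vomeronasal receptor genes, which are not known to be used by B cells, summed to 74.9, 70.8, and 134.6 CPM in PBS and 46.5, 42.6, and 43.9 CPM in OVA NP libraries, again without overlap. Of 2003 such genes, 339, 228, and 454 had a count in PBS and 201, 136, and 187 in OVA NP libraries. What sets either measure, and its part in the results below, was not tested.

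**Figure D1:**
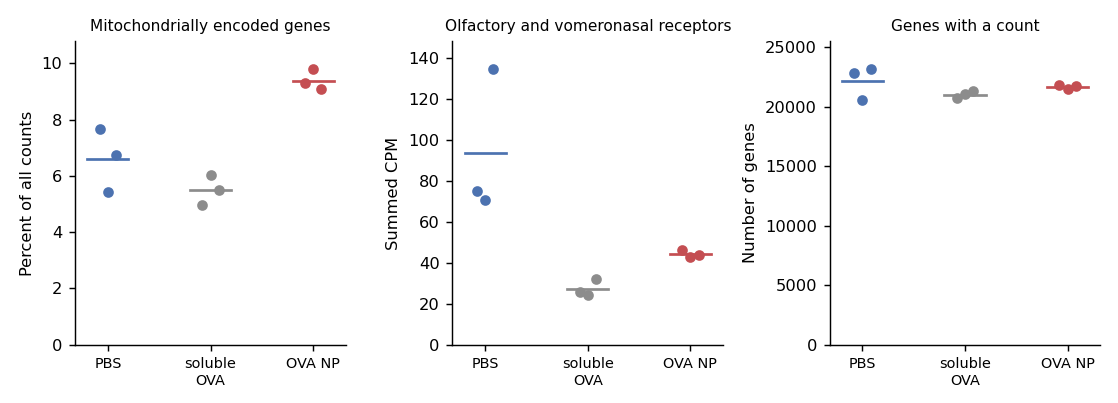
The share of counts from mitochondrially encoded genes (percent), the summed level of olfactory and vomeronasal receptor genes (CPM), and the number of genes with a count, for each PP library of the PBS, soluble OVA, and OVA NP groups (points are libraries, lines are group means). The OVA NP libraries sit at 9.08% to 9.80% mitochondrial counts, above all PBS libraries, and PBS replicate 3 has the highest receptor level at 134.6 CPM.

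No gene passed the test between OVA NP and PBS in PP B cells with edgeR, and the smallest *p* values belonged to genes as unlike as a mast cell protease, a heat shock protein, and a choline kinase. Of 15798 genes tested with edgeR's quasi-likelihood test, 0 were DEGs, defined by an adjusted *p* under 0.05 and a log2 fold change beyond 0.25 in either direction, which is 0% of the genes tested. The smallest adjusted *p* was 0.0522, and 9 genes (0.057%) were under 0.1. These were the κ variable segment *Igkv1-135*, the mast cell protease *Mcpt2*, *Usp17la*, the unannotated *Gm28439*, *Chka*, *Carns1*, *Hsph1*, *Rnf122*, and *Pagr1a*, all also called by DESeq2. Without adjustment, 720 genes (4.56%) were higher and 853 (5.4%) were lower with OVA NPs at a *p* under 0.05, which is 1573 (9.96%) in all. DESeq2, the tool used by the study, called 149 genes (0.943%) at the same cutoffs, 93 (0.589%) higher and 56 (0.354%) lower, and in all 149 the 3 libraries of one group lay outside the range of the other. The DESeq2 number was 74 without OVA NP replicate 3 and 262 without PBS replicate 3, and the edgeR number 2 and 8. The 2 groups did not overlap in 1073 genes (6.79%) with higher and 1656 genes (10.5%) with lower levels in OVA NP libraries. The log2 fold change, always OVA NP minus PBS, was above 0 in 48.6% of all genes, and its median was -0.01. In the rest of the text a gene is said to be called only where a named test passed, and other values are given as they were measured. Counts of list members below are to be set beside the shares over all genes given here.

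Genes of mast cells, tissue cells that store proteases in granules, were at higher levels in OVA NP libraries. *Mcpt1*, a granule chymase of these cells (also known as MCPT-1, chr14:56017971-56020384 in GRCm38), was at 28.9, 18.5, and 36.4 CPM in PBS replicates 1 to 3 and at 206, 214, and 147 CPM in OVA NP replicates 1 to 3. Every OVA NP library was above every PBS library, with a log2 fold change of 2.76 ± 0.30 (SE; 95% interval 2.02 to 3.51; edgeR adjusted *p* = 0.125, DESeq2 adjusted *p* = 7.10e-33). *Mcpt2*, a neighboring chymase gene at chr14:56042041-56044642, was at 13.5, 11.8, and 17.98 CPM and 108, 113, and 75.3 CPM in the same order, and its log2 fold change was 2.78 ± 0.23 (edgeR adjusted *p* = 0.0522, DESeq2 adjusted *p* = 2.70e-40). The 2 proteases are close relatives in 1 cluster on chromosome 14, so how RSEM divided reads that fit both is uncertain for each. *Mcpt4*, another chymase of that cluster, was at 1.21, 0.659, and 0.666 CPM and 3.63, 6.68, and 3.23 CPM, with a log2 fold change of 2.39 ± 0.41 (DESeq2 adjusted *p* = 2.19e-04).

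The same direction was seen in mast cell genes on other chromosomes. *Cpa3*, the mast cell carboxypeptidase, was at 1.79, 1.03, and 2.92 CPM in PBS and 9.98, 8.76, and 9.197 CPM in OVA NP libraries, a log2 fold change of 2.27 ± 0.34 (DESeq2 adjusted *p* = 8.03e-08). Genes for 2 of the subunits of the high-affinity IgE receptor were also higher: *Fcer1a*, the IgE-binding chain, was at 0.625, 0.293, and 1.08 CPM and 2.39, 3.06, and 2.14 CPM. *Ms4a2*, the signaling β chain of that receptor, was at 0.4996, 0, and 0.4098 CPM and 4.05, 3.48, and 2.73 CPM, with PBS counts of 12, 0, and 8. DESeq2 called both, with adjusted *p* of 0.0403 and 1.68e-05. *Gata2*, a transcription factor of mast cells, was at 1.75, 1.61, and 1.49 CPM and 3.31, 5.24, and 3.64 CPM, with a log2 fold change of 1.34 ± 0.29 (DESeq2 adjusted *p* = 0.0242). *Kit*, the stem cell factor receptor that mast cells need, differed less, at 29.7, 22.9, and 22.9 CPM and 30.7, 30.1, and 30.96 CPM (0.29 ± 0.12, edgeR adjusted *p* = 0.466), and it was not called although the groups did not overlap. *Hpgds*, a prostaglandin synthase of mast cells and other cells, overlapped between groups, at 49.5, 55.1, and 40.4 CPM and 30.6, 65.5, and 68.2 CPM.

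Of 12 tested genes of a mast cell list, 12 had a log2 fold change above 0, with a median of 1.61 against -0.01 over all genes. At an unadjusted *p* under 0.05, 9 were higher (4.56% of all genes), and 9 were higher without overlap between groups (6.79% of all genes). This list was put together after these values had been seen and supports nothing beyond them. Summed over the list, the level was 132, 115, and 127 CPM in PBS and 403, 456, and 349 CPM in OVA NP libraries, and 161, 171, and 289 CPM in the 3 PP libraries of mice given soluble OVA. *Mcpt1* was at 63.3, 67.8, and 139.8 CPM in those soluble OVA libraries. More mast cells among the isolated cells cannot be told apart from more RNA per mast cell in bulk samples, which holds for each cell type below.

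Genes of other nonfollicular cells differed as well, mostly toward higher levels in OVA NP libraries. Of 15 T cell genes, 14 had a log2 fold change above 0, 8 at an unadjusted *p* under 0.05, with a median of 0.85. *Cd4*, the coreceptor of helper T cells, was at 1.12, 0.439, and 1.895 CPM in PBS and 4.51, 3.34, and 3.14 CPM in OVA NP libraries. *Cd8a*, the coreceptor of cytotoxic T cells, was at 2.62, 1.17, and 2.203 CPM and 5.56, 4.497, and 4.51 CPM. Neither gene overlapped between groups, and neither was called (edgeR adjusted *p* of 0.337 and 0.283). *Lck*, a T cell kinase also present in B-1 and germinal center B cells, went the other way, at 155, 137, and 149 CPM and 104, 122, and 115 CPM (log2 fold change -0.37 ± 0.08, DESeq2 adjusted *p* = 0.0165).

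Granzymes, proteases of cytotoxic lymphocytes, were among the DESeq2 calls. *Gzma* was at 9.83, 12.1, and 11.5 CPM in PBS and 28.3, 26.9, and 19.4 CPM in OVA NP libraries, with a log2 fold change of 1.18 ± 0.17 (DESeq2 adjusted *p* = 4.17e-06, edgeR adjusted *p* = 0.118). *Gzmb*, which some regulatory B cells and mast cells can also make, was at 5.45, 3.003, and 5.89 CPM and 11.3, 14.6, and 11.3 CPM, with a log2 fold change of 1.37 ± 0.26 (DESeq2 adjusted *p* = 3.89e-04, edgeR adjusted *p* = 0.1901). Of 12 genes of cytotoxic and intraepithelial lymphocytes, a list also made after values were seen, 9 were above 0 with a median of 0.63, while *Prf1*, the pore-forming perforin, was at -0.43 ± 0.29. *Il7r*, the IL-7 receptor of T cells and innate lymphoid cells, was at 35.1, 29.6, and 33.6 CPM and 49.7, 54.1, and 39.8 CPM and was called higher by DESeq2 (log2 fold change 0.56 ± 0.13, adjusted *p* = 0.0254). It was listed as a glucocorticoid target, and 7 of the 10 genes of that list were below 0.

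All 12 tested monocyte and macrophage genes were above 0, 6 of them at an unadjusted *p* under 0.05, with a median of 0.54. *Ly6c2*, a surface protein of inflammatory monocytes, was at 7.83, 7.91, and 6.25 CPM in PBS and 13.3, 11.4, and 11.5 CPM in OVA NP libraries and was the one called by DESeq2 (log2 fold change 0.73 ± 0.17, adjusted *p* = 0.0308). All 18 epithelial genes were above 0 too, with a median of 0.51, but 1 was at an unadjusted *p* under 0.05 and the summed level was 936, 414, and 1453 CPM in PBS against 1897, 1014, and 1144 CPM in OVA NP libraries, so the groups overlapped. Without OVA NP replicate 1 or PBS replicate 2 the median was 0.14 or 0.16, and without PBS replicate 3 it was 0.88. Stromal and endothelial genes went the other way, with 12 of 12 below 0 and a median of -0.59. *Col1a1*, a collagen of fibroblasts, was at 14.7, 3.22, and 3.69 CPM and 3.13, 2.87, and 1.09 CPM, and its spread came mostly from PBS replicate 1. The 6 PP libraries thus differed between groups in transcripts of several accompanying cell types, and their part in the values of genes that B cells share with those cells was not tested.

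**Figure D2:**
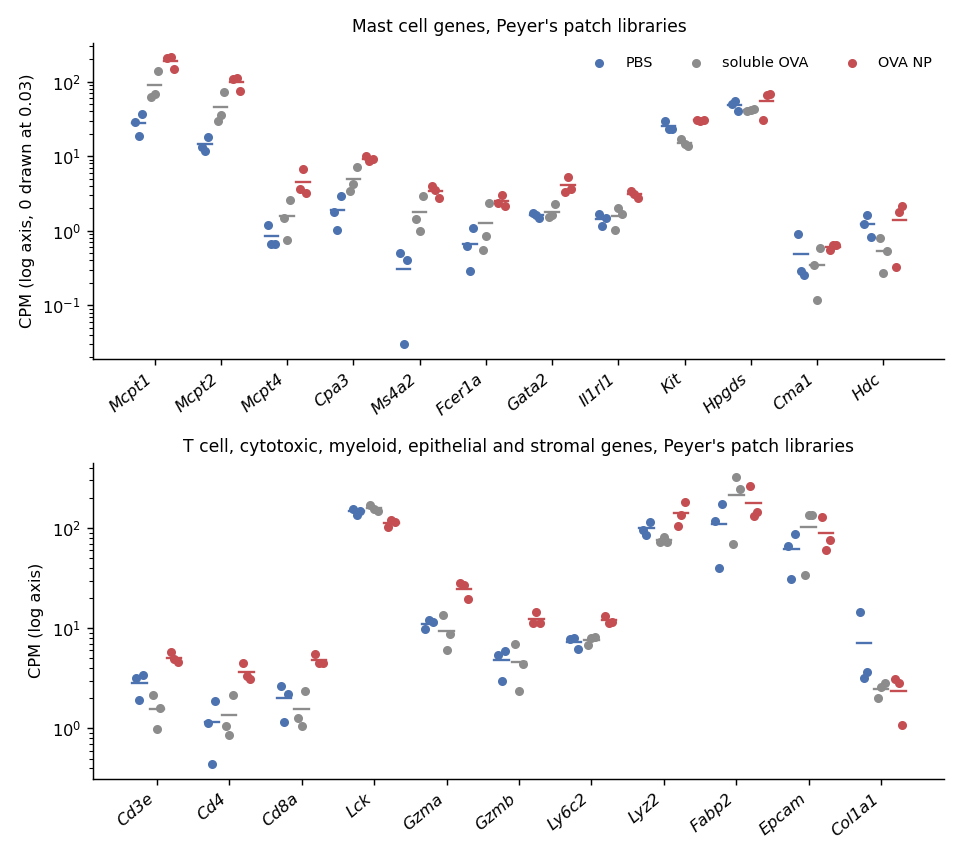
Levels of mast cell genes (top) and of T cell, cytotoxic, myeloid, epithelial, and stromal genes (bottom) in each PP library of the PBS, soluble OVA, and OVA NP groups, in CPM on a log axis (points are libraries, lines are group means). The 3 OVA NP libraries lie above the 3 PBS libraries for *Mcpt1*, *Mcpt2*, *Cpa3*, *Gzma*, and *Gzmb*, and the groups overlap for *Fabp2* and *Epcam*.

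Heat shock proteins are chaperones that refold damaged proteins, and their genes are switched on together by the factor HSF1, which binds heat shock elements in DNA. Most of them were higher in OVA NP libraries, with 15 of 16 genes above 0 and a median log2 fold change of 0.29. Of the 16, 8 were higher at an unadjusted *p* under 0.05 (4.56% of all genes), and 7 were higher without overlap between groups (6.79% of all genes). The summed level was 4756.5, 5145, and 5462 CPM in PBS and 7896.5, 5218, and 6567 CPM in OVA NP libraries, so the groups overlapped. It was 6367, 7495, and 7720 CPM in the soluble OVA libraries of the PP. *Hsph1*, a large HSP70-like chaperone, was at 90.3, 96.96, and 90.2 CPM in PBS and 168, 153, and 222 CPM in OVA NP libraries, with a log2 fold change of 0.98 ± 0.12 (edgeR adjusted *p* = 0.0715, DESeq2 adjusted *p* = 3.20e-10). *Dnaja1*, an HSP40 cochaperone, was at 193, 253, and 205 CPM and 330.0, 294, and 363 CPM. *Hspa8*, the constitutive HSP70, was at 831, 868, and 948 CPM and 1371, 1033, and 1295 CPM. *Chordc1*, an HSP90 cochaperone, was at 68.5, 75.3, and 58.5 CPM and 95.1, 87.98, and 101 CPM. DESeq2 called these 3 with log2 fold changes of 0.61 ± 0.12, 0.50 ± 0.12, and 0.51 ± 0.10 and adjusted *p* of 2.18e-04, 0.00667, and 0.00309. The stress-inducible *Hspa1a* did not separate the groups: it was at 196, 267, and 421 CPM in PBS and 935, 216, and 343 CPM in OVA NP libraries, with OVA NP replicate 1 far above the rest.

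Promoter stretches of these genes are shown because the members differed in 1 direction. RefSeq windows of 250 bases before and 50 after the gene start (GRCm38.p6) were found for 13 of the 16 genes and searched on both strands for a heat shock element of 13 bases (GAA, any 2 bases, TTC, any 2 bases, GAA), where overlapping matches were counted separately. It was present for 4 of the 13 genes (30.8%) and in 198 of all 32851 windows (0.603%). The former share counts genes, some with more than 1 window, and the latter counts windows, so they are not alike. The 4 genes were *Hsph1*, *Chordc1*, *Hspe1*, and *Hspd1*. The last 2, the mitochondrial chaperonins, lie head to head, and 1 of the 2 windows of *Hspd1* overlaps that of *Hspe1* and holds the same matches, while the other holds none. The sequences are printed on the strand of the named gene, in lower case with the matches in capitals. The window of *Hsph1* held its match after the start, at bases 36 to 48 from it (chr5:149636287-149636308, minus strand), that of *Chordc1* held 3 overlapping matches across the start (chr9:18292223-18292285, plus strand), and that of *Hspe1* held 2 overlapping matches 89 to 72 bases before the start (chr1:55088019-55088116, plus strand).
Hsph1: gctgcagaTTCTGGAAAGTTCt
Chordc1: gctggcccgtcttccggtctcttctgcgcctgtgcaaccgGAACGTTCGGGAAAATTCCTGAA
Hspe1: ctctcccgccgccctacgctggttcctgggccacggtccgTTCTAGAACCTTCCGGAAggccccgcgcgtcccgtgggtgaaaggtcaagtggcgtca
*Hspe1* was at 69.9, 74.4, and 78.3 CPM and 84.4, 83.4, and 91.9 CPM (log2 fold change 0.23 ± 0.08), and *Hspd1* at 0.21 ± 0.11. A match is a description of the letters, and *Dnaja1*, which DESeq2 called, had none in its 3 windows. *Hspa1a*, *Hspa1b*, *Dnajb1*, and *Hspb1* were among the other genes without a match. *Hspa8* was not searched.

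Endoplasmic reticulum chaperones and cold-inducible RNA-binding proteins were also among the DESeq2 calls, in opposite directions. *Hsp90b1* (GRP94), which folds immunoglobulins and Toll-like receptors, was at 429, 486, and 416 CPM in PBS and 613, 582, and 676 CPM in OVA NP libraries, with a log2 fold change of 0.50 ± 0.08 (DESeq2 adjusted *p* = 1.06e-05, edgeR adjusted *p* = 0.125). *Creld2*, another folding factor of that compartment, was at 29.6, 28.5, and 27.3 CPM and 39.8, 37.6, and 40.02 CPM (log2 fold change 0.47 ± 0.08, DESeq2 adjusted *p* = 0.00421). Over 22 genes of folding and secretion, 15 were above 0 and 4 were higher at an unadjusted *p* under 0.05, with a median of 0.09. *Cirbp*, an RNA-binding protein made at low temperature, was at 156, 168, and 157 CPM and 95.7, 123.5, and 117 CPM (log2 fold change -0.51 ± 0.09, DESeq2 adjusted *p* = 4.63e-04). *Rbm3*, its relative, was at 666, 743, and 705 CPM and 462, 584, and 541 CPM (log2 fold change -0.40 ± 0.09, DESeq2 adjusted *p* = 0.00487). Both were singled out after their values were seen.

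Cholesterol synthesis genes, which the factor SREBP2 drives when sterol is low, were lower in OVA NP libraries. Of 21 genes, 20 had a log2 fold change below 0, with a median of -0.30. At an unadjusted *p* under 0.05, 11 were lower (5.4% of all genes), and 11 were lower without overlap between groups (10.5% of all genes). *Srebf2*, which encodes SREBP2, was at 552, 575, and 513 CPM in PBS and 414, 474, and 417 CPM in OVA NP libraries and was the one member called by DESeq2 (log2 fold change -0.32 ± 0.08, adjusted *p* = 0.02098). *Sqle*, squalene epoxidase, was at 54.2, 44.6, and 46.1 CPM and 36.2, 37.1, and 36.1 CPM (log2 fold change -0.39 ± 0.09, edgeR adjusted *p* = 0.259). PBS replicate 1 was the highest library for *Sqle*, *Cyp51*, and *Fdps*, and without it the list median was -0.15. Promoter windows were found for 14 of the 21 genes, and the sterol regulatory element TCACNCCAC was present for 1 of them, *Hmgcs1*, and in 1.24% of all windows.

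MHC class II genes, through which B cells show peptides to helper T cells, were also lower. Of 13 genes, 11 were below 0, with a median of -0.14. At an unadjusted *p* under 0.05, 6 were lower (5.4% of all genes), and 8 were lower without overlap between groups (10.5% of all genes). *Cd74*, the invariant chain, was at 7969.6, 9287, and 8258 CPM in PBS and 6659, 6679, and 6686 CPM in OVA NP libraries, a log2 fold change of -0.34 ± 0.07 (DESeq2 adjusted *p* = 0.003701, edgeR adjusted *p* = 0.224). *H2-Ab1*, the β chain of I-A, was at 2496, 2677, and 2572 CPM and 2052, 2156, and 2191 CPM, a log2 fold change of -0.26 ± 0.06 (DESeq2 adjusted *p* = 0.00314). *Ciita*, the coactivator that turns these genes on, was at 871, 993, and 926 CPM and 793, 785, and 738 CPM (-0.26 ± 0.08, edgeR adjusted *p* = 0.361). The MHC class I genes had a median of 0.04, with 8 of 14 above 0.

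**Figure D3:**
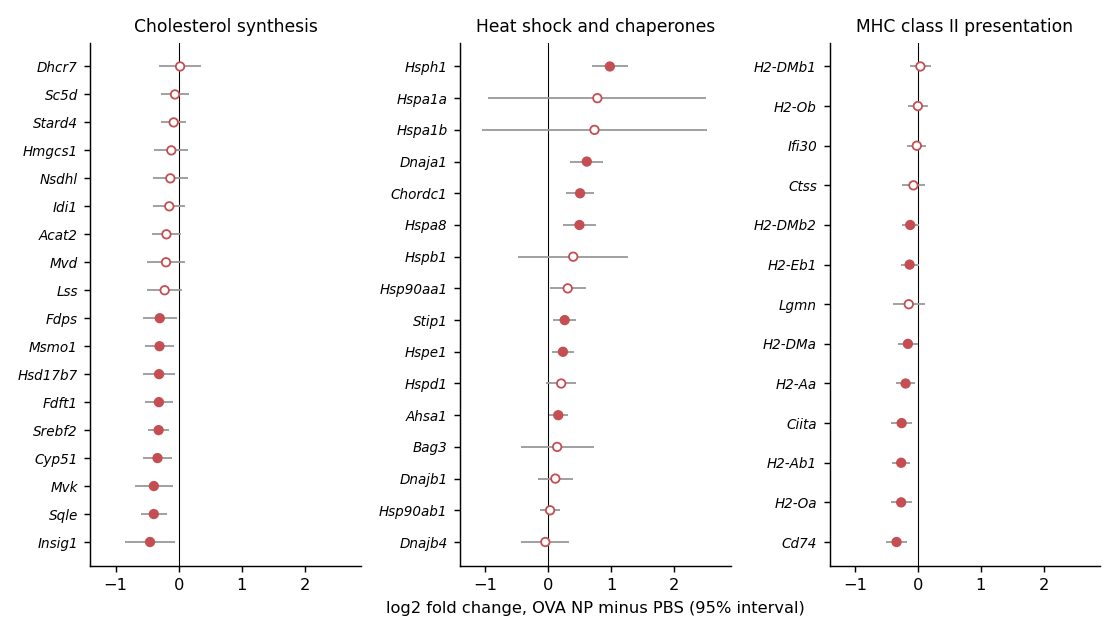
Log2 fold change (OVA NP minus PBS, 3 libraries each) of tested genes of the cholesterol synthesis, heat shock, and MHC class II lists, with 95% intervals from the edgeR fit. Filled points mark genes whose groups do not overlap, which are 9 of the 18 cholesterol genes drawn and 8 MHC class II genes with lower levels and 7 heat shock genes with higher levels in OVA NP libraries.

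Small decreases in the same range were measured across genes that define follicular B cells. In the B cell identity list, 9 of 12 genes were below 0 and 5 at an unadjusted *p* under 0.05, with a median of -0.15. The summed level was 9209, 10012, and 8965 CPM in PBS and 8346, 8765, and 8824 CPM in OVA NP libraries, so the groups did not overlap. *Pax5*, the factor that maintains B cell identity, was at 1129, 1231, and 1068 CPM and 859, 1056, and 992 CPM (-0.23 ± 0.08, edgeR adjusted *p* = 0.441). Among 24 B cell receptor signaling genes, 19 were below 0 and 7 at an unadjusted *p* under 0.05, with a median of -0.13. Of 13 genes of naive follicular B cells, 12 were below 0, with a median of -0.18. Without PBS replicate 2 these medians were -0.059 for receptor signaling and -0.10 for naive follicular genes. *Fcer2a* (CD23), the low-affinity IgE receptor of follicular cells, was at 785, 881, and 878 CPM and 705, 677, and 612 CPM and was called lower by DESeq2 (log2 fold change -0.34 ± 0.09, adjusted *p* = 0.0422). Marginal zone genes did not share that direction, with 9 of 13 above 0 and a median of 0.10. Genes of B-1, memory, and atypical B cells had 15 of 18 above 0, with a median of 0.15.

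Receptors that place B cells within the follicle were mixed. *Cxcr5*, the receptor for the follicular chemokine CXCL13, was at 384, 479, and 354 CPM in PBS and 248, 285, and 292 CPM in OVA NP libraries and was called lower by DESeq2 (log2 fold change -0.55 ± 0.11, adjusted *p* = 0.00108, edgeR adjusted *p* = 0.219). *Cxcr4*, which holds germinal center B cells in the dark zone, was at 403, 496, and 495 CPM and 209.9, 387, and 326 CPM, with OVA NP replicate 1 lowest (-0.59 ± 0.22, edgeR adjusted *p* = 0.473). *S1pr1*, which guides exit into lymph, was at 242, 288, and 223 CPM and 211, 185, and 193 CPM (-0.34 ± 0.10). *Ccr9*, a small-intestine homing receptor, was higher without overlap, at 12.9, 13.6, and 12.7 CPM and 20.04, 18.4, and 16.3 CPM (0.49 ± 0.13, edgeR adjusted *p* = 0.287). Of the 21 homing and chemokine receptor genes, 8 were above 0 and the median was -0.09. *Gpr18*, a G protein–coupled receptor of lymphocytes, was at 69.4, 78.4, and 73.5 CPM and 44.9, 56.00, and 51.4 CPM (log2 fold change -0.53 ± 0.09, DESeq2 adjusted *p* = 8.99e-04). *Hvcn1*, the proton channel that tunes B cell receptor signaling, was at 803, 887, and 784 CPM and 619, 564, and 577 CPM (log2 fold change -0.48 ± 0.08, DESeq2 adjusted *p* = 1.59e-05).

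No germinal center gene was called between the groups in the PP. Of 15 germinal center genes, 2 were above 0, 0 were higher and 0 lower at an unadjusted *p* under 0.05, and the median was -0.07 (between -0.17 and 0.057 when 1 library was left out, above 0 only without OVA NP replicate 1). *Bcl6*, the master regulator of the germinal center, was at 213, 201, and 179 CPM in PBS and 146, 212, and 202 CPM in OVA NP libraries (-0.07 ± 0.13, 95% interval -0.36 to 0.22). *Mki67*, a proliferation marker, was at 837, 738, and 671 CPM and 572, 852, and 818 CPM. OVA NP replicate 1 was lowest in proliferation genes as well. The 41 replication genes summed to 4067, 3724, and 3378 CPM in PBS and 2715, 3484, and 3808 CPM in OVA NP libraries, with a median log2 fold change of -0.15, and the 30 mitosis genes had a median of -0.15. Without OVA NP replicate 1 the medians were -0.035 and -0.013, and without PBS replicate 1 -0.067 and -0.077. Of the replication and mitosis genes, 1 and 2 were lower at an unadjusted *p* under 0.05.

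Genes of class switching and antibody secretion differed in both directions. *Jchain*, which joins IgA dimers and IgM pentamers, was at 572, 497, and 479 CPM in PBS and 734, 676, and 612 CPM in OVA NP libraries and was called higher by DESeq2 (log2 fold change 0.40 ± 0.10, adjusted *p* = 0.02098, edgeR adjusted *p* = 0.261). *Igha*, the IgA constant region, was at 648, 394, and 576 CPM and 1152, 844, and 622 CPM, and the groups overlapped (0.71 ± 0.31, 95% interval -0.07 to 1.49). *Ighe*, the IgE constant region, was at 0.708, 1.17, and 0.922 CPM and 0.736, 2.97, and 6.97 CPM (1.94 ± 0.73, edgeR adjusted *p* = 0.455), with OVA NP replicate 1 inside the PBS range and replicate 3 highest. *Ighg1*, the IgG1 constant region, was at 989.5, 779, and 879 CPM and 546, 950.3, and 929 CPM (-0.12 ± 0.21). The constant regions are polymorphic between BALB/cJ and the reference strain, so these levels are less certain than others. In a list of 23 switching and IgA induction genes, 17 were below 0 and 8 at an unadjusted *p* under 0.05, with a median of -0.16. *Il21r*, the receptor for the helper cytokine IL-21, was at 232, 235, and 228 CPM and 169, 204, and 178 CPM and was its one DESeq2 call (log2 fold change -0.32 ± 0.08, adjusted *p* = 0.02698). *Tgfbr2*, a receptor chain for TGF-β, which drives the IgA switch, was at 318, 377, and 321 CPM and 291, 285, and 273 CPM (-0.25 ± 0.08, edgeR adjusted *p* = 0.402).

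Activation genes varied widely within groups. Of 24 immediate-early genes, which respond within minutes to receptor signals and to tissue handling, 19 were below 0 and 5 at an unadjusted *p* under 0.05, with a median of -0.39. Their summed level was 5091, 8173, and 6440.5 CPM in PBS and 3525, 5787, and 5486 CPM in OVA NP libraries, so the groups overlapped and OVA NP replicate 1 was lowest. Without it the median was -0.20, and without PBS replicate 2, the highest, -0.23. *Jund*, an AP-1 subunit, was at 403, 602, and 497 CPM and 320.2, 392, and 364 CPM (-0.47 ± 0.14, edgeR adjusted *p* = 0.375). Light zone and activation genes had 13 of 14 below 0 and a median of -0.29 (-0.12 without OVA NP replicate 1 and -0.18 without PBS replicate 2). NF-κB subunits and targets had 14 of 17 below 0 and a median of -0.12 (-0.059 and -0.052 without the same libraries).

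The 2 interferon lists had medians of opposite sign, a difference that was not tested. Of 15 interferon-induced GTPases, which attack vacuoles of intracellular microbes, 13 were above 0 and 4 at an unadjusted *p* under 0.05, with a median of 0.23. Their summed level overlapped between groups, at 351, 424, and 339 CPM in PBS and 376, 390.3, and 396 CPM in OVA NP libraries. *Gbp7*, a guanylate-binding protein, was at 11.4, 13.99, and 10.5 CPM in PBS and 16.5, 14.5, and 17.98 CPM in OVA NP libraries (0.47 ± 0.15, edgeR adjusted *p* = 0.384). Of 34 interferon-stimulated antiviral genes, 12 were above 0, 0 at an unadjusted *p* under 0.05, and the median was -0.12 (between -0.21 and 0.044 when 1 library was left out, above 0 only without PBS replicate 2).

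Genes tied to regulatory B cells were examined because the study asked whether OVA NPs act through such cells. The study itself shows differentially expressed markers of regulatory B cells for the PP in a supplemental volcano plot. Its text names none of those PP genes, so the study genes used below are those it names for the spleen. *Il10*, their best-known cytokine, was at 0.625, 0.659, and 0.256 CPM in PBS and 0.0919, 0.649, and 0.455 CPM in OVA NP libraries (-0.34 ± 0.70), from 15, 9, and 5 counts and 2, 14, and 10 counts, and the groups overlapped. *Nt5e* (CD73), an enzyme that makes adenosine, was at 42.9, 41.6, and 40.1 CPM and 36.8, 56.4, and 49.2 CPM (0.20 ± 0.13, 95% interval -0.10 to 0.50). The text of the study names 25 genes as higher in the spleen with OVA NPs, a part of the regulatory B cell genes it counts. Of these, 13 were above 0 in the PP, and the median was 0.00. At an unadjusted *p* under 0.05, 1 was higher and 1 lower, near the shares over all genes (4.56% and 5.4%). The 25 genes had a median of 0.58 in the spleen, where 21 were DEGs. The spleen libraries are those on which they were chosen, so that value is not independent. *Plscr1*, a phospholipid scramblase, was the higher gene in the PP, at 8.91, 8.06, and 8.45 CPM and 9.98, 14.3, and 14.1 CPM (0.60 ± 0.17, edgeR adjusted *p* = 0.343), and *Rplp0*, a protein of the ribosomal stalk, was the lower one, at 1218, 1225, and 1249.7 CPM and 995, 1063, and 1146 CPM (-0.19 ± 0.07, edgeR adjusted *p* = 0.399). The 12 genes it names in the other direction, also a part, had a PP median of 0.02.

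Among genes that all cells use, the mitochondrial transcripts stood apart. All 13 mitochondrially encoded mRNAs, which encode subunits of the respiratory chain, were above 0, with a median of 0.49. At an unadjusted *p* under 0.05, 10 were higher (4.56% of all genes), and 11 were higher without overlap (6.79% of all genes). DESeq2 called 7 higher (0.589% of all genes). *mt-Co1*, a subunit of cytochrome oxidase, was at 33011, 25227, and 28657 CPM in PBS and 40146, 42556, and 39977 CPM in OVA NP libraries (0.51 ± 0.10, DESeq2 adjusted *p* = 3.74e-04). The 77 tested nuclear genes of the same complexes had a median of 0.01. Cytosolic ribosomal protein genes had a median of -0.06 over 79 genes. *Eef2*, the elongation factor that moves the ribosome along mRNA, was at 4309, 4286, and 4156 CPM and 3248, 3389.9, and 3627 CPM and was called lower by DESeq2 (-0.30 ± 0.06, adjusted *p* = 3.12e-04).

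Further single genes with small *p* values were not members of these systems. *Chka*, choline kinase of membrane lipid synthesis, was at 43.5, 45.4, and 42.8 CPM in PBS and 59.5, 68.1, and 66.2 CPM in OVA NP libraries (log2 fold change 0.57 ± 0.07, edgeR adjusted *p* = 0.0715, DESeq2 adjusted *p* = 2.74e-06). *Carns1*, which makes the dipeptide carnosine, was at 84.5, 85.5, and 84.8 CPM and 53.2, 60.4, and 51.2 CPM (-0.62 ± 0.08, edgeR adjusted *p* = 0.0715). *Rnf122*, a ubiquitin ligase, was at 46.05, 45.8, and 46.5 CPM and 31.03, 30.9, and 31.6 CPM (-0.55 ± 0.07, edgeR adjusted *p* = 0.0715). The replicates of each group were close for these 3 genes. The folds are small, and groups that did not overlap were a condition for naming these genes. *Lifr*, the receptor for leukemia inhibitory factor, was at 13.9, 12.7, and 14.04 CPM and 20.7, 20.4, and 25.5 CPM (0.72 ± 0.12, edgeR adjusted *p* = 0.133, DESeq2 adjusted *p* = 0.00119). *Slc16a5*, a monocarboxylate transporter, was at 3.75, 1.904, and 3.38 CPM and 10.1, 10.3, and 9.79 CPM (1.73 ± 0.26, DESeq2 adjusted *p* = 8.34e-07). *Banp*, a nuclear matrix protein that binds CG-rich promoters, was at 37.3, 33.3, and 32.4 CPM and 50.8, 47.4, and 52.2 CPM (0.56 ± 0.09, DESeq2 adjusted *p* = 3.35e-04).

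Other DESeq2 calls were made in both directions. *Tymp*, thymidine phosphorylase, had a log2 fold change of 0.87 ± 0.14, *Rp2*, a GTPase activator, of 0.43 ± 0.07, and *Prkar2b*, a regulatory subunit of protein kinase A, of 1.94 ± 0.47. Lower were *Nrm*, a nuclear envelope protein, at -0.47 ± 0.07, *Ctso*, a cysteine protease, at -0.38 ± 0.07, *Marcksl1*, an actin regulator, at -0.41 ± 0.08, *Slc14a1*, a urea transporter, at -0.60 ± 0.11, and *Aebp1*, a protein of connective tissue, at -1.57 ± 0.38. *Mcrs1*, *Ctdsp1*, *Bend5*, *Rgl1*, and *Mybpc2* were at -0.40, -0.33, -0.39, -0.61, and -0.74. *H19*, an imprinted long noncoding RNA, was at 0.375, 0.146, and 0.768 CPM in PBS and 7.36, 7.695, and 2.96 CPM in OVA NP libraries (3.75 ± 0.57). *Pagr1a*, at 0.2498, 0, and 0.307 CPM and 2.896, 5.84, and 5.33 CPM, was at 5.29, 0.366, and 0.407 CPM in the 3 PBS libraries of the spleen, so its level varied within 1 group there. *Tlcd4* and *Gpr17* had PBS counts of 4, 0, and 10 and 6, 2, and 11, too few for a firm fold.

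A set of 15 genes had 3 or fewer counts in each OVA NP library and more than 3 in each PBS library, and 2 had the opposite pattern. *Usp17la*, a deubiquitinase gene of a family of near-identical copies, had 73, 19, and 58 counts in PBS and 2, 2, and 1 in OVA NP libraries. Its edgeR adjusted *p* was 0.0522, equal to that of *Mcpt2*. Of the 15, 12 were also at 3 or fewer counts in all 3 soluble OVA libraries of the PP. Higher counts in PBS than in OVA NP libraries were the condition by which the 15 were picked. Olfactory and vomeronasal receptors summed to 25.7, 24.4, and 32.0 CPM in the soluble OVA libraries, below every PBS and OVA NP library of the PP. In the spleen this sum varied within 1 group, at 61.2, 320.7, and 36.1 CPM with soluble OVA.

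The effect of OVA NPs in the PP was then set beside that in the spleen, where the same treatment groups were sampled. The spleens were dispersed without enzyme digestion, so tissue and dissociation cannot be told apart. Germinal center, replication, mitosis, and cholesterol genes were higher with OVA NPs in splenic B cells and not in PP B cells, and the difference between tissues passed the test for many of them. In the spleen, edgeR called 1221 genes (8.6%) higher and 902 (6.35%) lower at the same cutoffs. Of 16619 genes tested for an interaction of tissue and treatment in the 12 libraries, 734 (4.42%) had an adjusted *p* under 0.05. In 589 of these (3.54%) the log2 fold change was lower in the PP than in the spleen and in 145 (0.872%) it was higher. This fit treated PP and spleen libraries as independent, and the labels do not say whether those of the same number shared mice. When 1 library was left out the number ranged from 291 without spleen OVA NP replicate 1 to 945 without PBS replicate 2, and DESeq2 gave 1290, of which 416 were higher in the PP. The median absolute log2 fold change of the 702 that were tested in the PP was 0.157 there and 0.549 in the spleen.

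Of 15 germinal center genes, 13 passed the interaction test, all with the lower value in the PP, and their list median was -0.07 in the PP and 2.47 in the spleen. *Gcsam*, a signaling adaptor of germinal center B cells, was at 134, 114, and 114 CPM in PBS and 94.5, 131, and 131 CPM in OVA NP libraries of the PP, and at 2.903, 2.65, and 8.005 CPM and 47.4, 41.1, and 37.8 CPM in the spleen. The difference between tissues was -3.24 ± 0.44 (edgeR interaction, adjusted *p* = 0.00663), and the PP levels of PBS-treated mice were above the splenic levels of OVA NP–treated mice. *Ighg1* was at 25.8, 20.5, and 50.2 CPM in PBS and 424, 470.0, and 380.0 CPM in OVA NP libraries of the spleen, and the difference between tissues was -3.84 ± 0.46 (adjusted *p* = 0.00535). Of 30 mitosis genes 28, and of 41 replication genes 26, passed with the lower value in the PP. *Nek2*, a mitotic kinase, differed by -1.94 ± 0.18, *Kif2c*, a kinetochore motor, by -1.80 ± 0.18, and *Cdca2*, a chromatin protein of mitotic exit, by -1.79 ± 0.19 (adjusted *p* of 2.75e-04, 2.75e-04, and 4.39e-04).

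Cholesterol synthesis went in opposite directions in the tissues, with a median of -0.30 in the PP and 0.33 in the spleen. 8 of the 21 genes passed the interaction test. *Sqle* was at 16.98, 12.5, and 16.1 CPM in PBS and 25.9, 21.8, and 29.7 CPM in OVA NP libraries of the spleen, opposite to its PP values above, and the difference between tissues was -1.16 ± 0.18 (adjusted *p* = 0.00471). *Cyp51*, which removes a methyl group from lanosterol, differed by -0.92 ± 0.14, and *Fdps*, which makes farnesyl pyrophosphate, by -0.94 ± 0.15 (adjusted *p* of 0.00471 and 0.00575). Of 16 heat shock genes 1, and of 12 mast cell genes 0, passed the interaction test, against 4.42% of all genes. Such low counts do not show that the effects were alike in the tissues. The mast cell list summed to only 54.9, 55.9, and 63.0 CPM in PBS and 97.2, 87.0, and 74.1 CPM in OVA NP libraries of the spleen. *Hsph1* had a log2 fold change of 1.20 ± 0.09 in the spleen, and its difference between tissues was -0.20 ± 0.17 (adjusted *p* = 0.581), which does not show that the effects were equal. *Mcpt1* was at 0.823, 1.06, and 1.67 CPM and 4.296, 6.03, and 7.99 CPM in the spleen, with a log2 fold change of 2.38 ± 0.29. *Stip1*, a cochaperone that links HSP70 and HSP90, was the heat shock gene that differed (-0.42 ± 0.10, adjusted *p* = 0.0273).

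**Figure D4:**
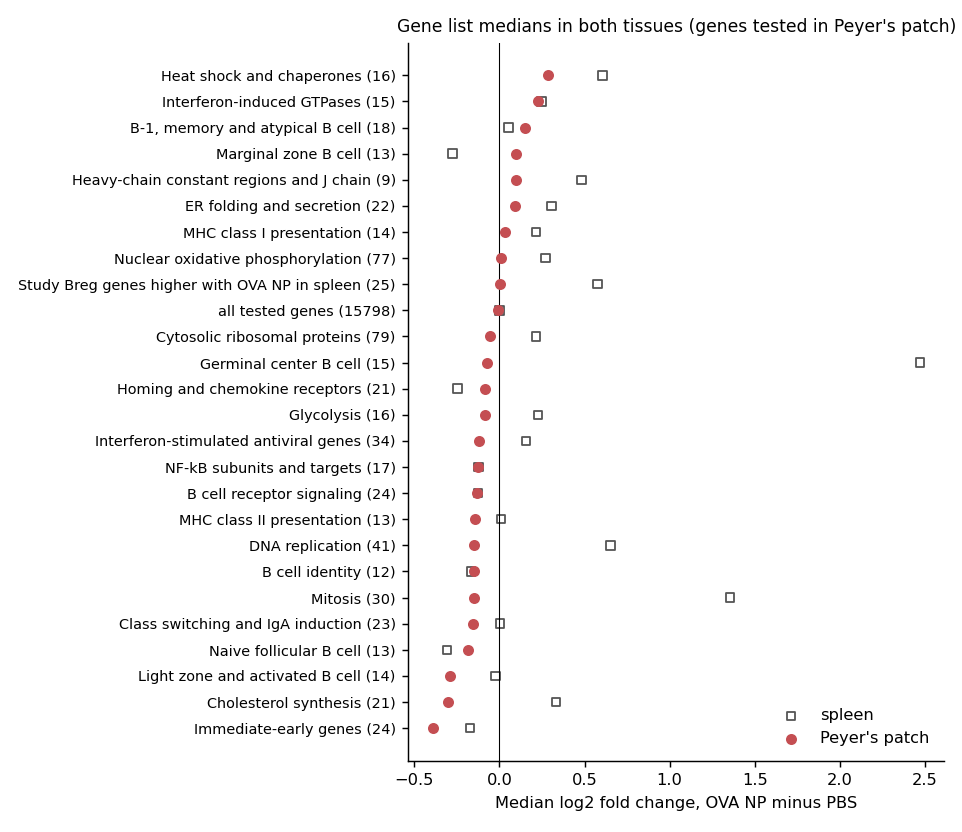
Median log2 fold change (OVA NP minus PBS) of 25 gene lists and of all tested genes in the PP (filled circles) and in the spleen (open squares), with the number of genes tested in the PP in parentheses. Germinal center genes sit at -0.07 in the PP and 2.47 in the spleen, and cholesterol synthesis genes at -0.30 and 0.33.

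Single genes with the smallest interaction *p* values had either a lower or a higher log2 fold change in the PP than in the spleen. Higher in the spleen, and overlapping or lower in the PP, were *Osbpl3*, an oxysterol-binding protein, with a difference between tissues of -2.19 ± 0.20, *Sh3bgrl2*, a small adaptor, with -2.96 ± 0.28, *Bcat1*, the cytosolic branched-chain aminotransferase, with -2.96 ± 0.29, and *Mxd3*, a MAX-binding repressor, with -2.38 ± 0.26 (edgeR adjusted *p* of 2.08e-04, 4.18e-04, 2.75e-04, and 4.39e-04). *Lifr* had the smallest *p* of all: it was at 4.94, 5.74, and 4.52 CPM in PBS and 40.7, 40.5, and 46.4 CPM in OVA NP libraries of the spleen, a larger difference than in the PP in the same direction, and the tissues differed by -2.33 ± 0.16 (adjusted *p* = 1.11e-05). In the other direction, *Chka* was at 0.01 ± 0.06 in the spleen and differed by 0.57 ± 0.09 (adjusted *p* = 0.00471). *Asb2*, a ubiquitin ligase subunit, had log2 fold changes of 0.46 ± 0.16 in the PP and -0.88 ± 0.11 in the spleen, a difference of 1.35 ± 0.20 (adjusted *p* = 0.00471). *Adam19*, a membrane protease, had 0.28 ± 0.07 and -0.33 ± 0.06, and *Plxnd1*, a semaphorin receptor, 0.28 ± 0.10 and -0.48 ± 0.08, with differences of 0.62 ± 0.09 and 0.78 ± 0.12 (adjusted *p* of 0.00398 and 0.00471). *Fam49a* and *Nod1*, an actin regulator and a sensor of bacterial peptidoglycan, were lower in the spleen (-0.68 ± 0.07 and -0.66 ± 0.08) and overlapped between groups in the PP, with differences of 0.70 ± 0.10 and 0.80 ± 0.13 (adjusted *p* of 0.00297 and 0.00599). *Cdc42bpb*, a kinase of the actin skeleton, was at 0.40 ± 0.10 in the PP and -0.28 ± 0.08 in the spleen, a difference of 0.69 ± 0.12 (adjusted *p* = 0.00599).

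**Figure D5:**
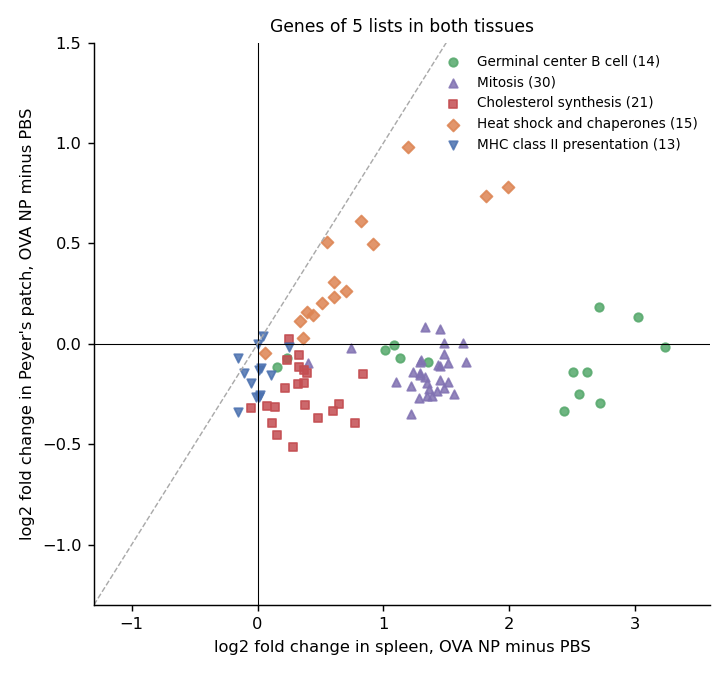
Log2 fold change (OVA NP minus PBS) in the PP (vertical axis) against that in the spleen (horizontal axis) for each gene of 5 lists tested in both tissues, with the line of equal values dashed. Germinal center and mitosis genes lie near 0 on the PP axis and mostly above 1 on the spleen axis, cholesterol genes lie mostly to the lower right, and heat shock genes are above 0 in both tissues except for 1.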

How the data were processed

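RNA was isolated from magnetically enriched B cells, and poly(A) libraries were sequenced as paired reads. Per the study's methods and processing notes, the authors trimmed reads with Cutadapt (v2.3), aligned them to GRCm38 with STAR (v2.7.8a), and deposited expected counts per gene from RSEM (v1.3.3). All deposited values were whole numbers, and 55487 gene rows were in the table. The 4 rows that name no gene held 0% of the counts and were left out. Library totals, and the CPM that 3 counts correspond to, set the precision of low levels, and they cover counting error only.

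The 6 libraries were grouped by tissue and treatment as labelled. Genes that passed edgeR's default expression filter were normalised by the trimmed mean of M values (TMM) and tested with edgeR's robust quasi-likelihood test (v4.0.16, R v4.3.3) with Benjamini-Hochberg adjustment. SE is the absolute log2 fold change divided by the square root of F. DESeq2 (v1.42.0) and limma (v3.58.1) were alternatives. The tissue interaction used the 12 PBS and OVA NP libraries of both tissues. CPM values were scaled by TMM factors over all 18 libraries, and nonoverlap between groups was judged on them. The fits were also run on simulated data with less spread between replicates than these libraries had. Those runs do not show what the tests can detect here. Positions came from a GRCm38 annotation and promoters from RefSeq.

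Members and gene lists (49 and 3 added after values were seen) were chosen with earlier results of these data known. Genes were named from the 15 smallest *p* values and the 10 largest DESeq2 fold changes in each direction, the 8 smallest interaction *p* values in each direction, and the lists. The first 3 rules took genes of at least 1 CPM that were no antigen receptor segment or unnamed model. The rules on *p* values and DESeq2 fold changes in the PP also required groups that did not overlap. For genes named by them, nonoverlap was thus a condition and not a result. *Igkv1-135* and *Gm28439* are named outside these rules, after their values were seen. No 2 libraries held identical values. The alternatives tried were other tests, scalings, filters, sample sets, and leaving out libraries. Values of a few single genes are not reported here.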

Additional observations from a re-analysis of the deposited data

Results flagged for a closer look

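The genes given here were named in the report and differed between tissues, with an adjusted *p* under 0.05 for the interaction of tissue and treatment in edgeR. Each value is the log2 fold change (OVA NP minus PBS) in the PP minus that in the spleen, with 3 libraries in each of the 4 groups.

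Among germinal center, switching, and division genes the values were -3.24 for *Gcsam*, -3.84 for *Ighg1*, -1.07 for *Jchain*, -1.61 for *Mki67*, -1.94 for *Nek2*, -1.80 for *Kif2c*, and -1.79 for *Cdca2*. Among cholesterol genes they were -1.16 for *Sqle*, -0.92 for *Cyp51*, and -0.94 for *Fdps*. *Nt5e* was at -0.87, *Stip1* at -0.42, *Eef2* at -0.35, *Rplp0* at -0.47, *Lifr* at -2.33, *Osbpl3* at -2.19, *Sh3bgrl2* at -2.96, *Bcat1* at -2.96, and *Mxd3* at -2.38.

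The value was above 0, with the higher effect in the PP, for *Chka* at 0.57, *Asb2* at 1.35, *Adam19* at 0.62, *Plxnd1* at 0.78, *Fam49a* at 0.70, *Nod1* at 0.80, *Cdc42bpb* at 0.69, *Ccr9* at 0.97, *Tymp* at 0.99, *Rp2* at 0.57, *Igkv1-135* at 0.57, and *Gm28439* at 0.59. *Usp17la*, at -4.96, and *Pagr1a*, at 6.78, had libraries with few or no counts, so their fitted values depend on the prior count and are no measure of size.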

How the results depend on the processing

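The number of PP DEGs depended on the method: it was 0 with edgeR and 149 with DESeq2, 2 with limma-voom, 16 with sample quality weights, 146 without the low-count filter (105 shared with the DESeq2 calls), 4 without mitochondrially encoded genes, 1 with all 9 PP libraries, 24 with all 18 libraries, and 9 at an adjusted *p* under 0.1. It stayed 0 with DESeq2 size factors, upper quartile scaling, no immunoglobulin genes, 10 counts in each library, and no fold cutoff. Leaving out 1 library gave 0 to 8, with 2 without OVA NP replicate 3 and 8 without PBS replicate 3. The DESeq2 number was 74 without OVA NP replicate 3 and 262 without PBS replicate 3. The fits that left libraries out of DESeq2 or added a block to it were chosen after seeing the data.

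Same-numbered PBS and OVA NP libraries had correlations of 0.047, 0.45, and -0.35 between their deviations from the group means. Differently numbered libraries ranged from -0.53 to 0.58, so these correlations cannot tell whether same-numbered libraries were paired. With a block for same-numbered PBS and OVA NP libraries of the PP, the edgeR number was 0 and the DESeq2 number 124 (66 shared). The block of the interaction fit was another one, which joined PP and spleen libraries of the same treatment and number. With it the interaction number was 348 (322 shared) in place of 734. DESeq2 gave 1290 interaction calls, 416 with the higher effect in the PP, against 145 of 734 with edgeR. Leaving out 1 library gave 291 to 945, with 291, 378, 317, 341, and 484 without spleen OVA NP replicates 1 and 2 and spleen PBS replicates 1, 2, and 3, and 362 and 488 without PBS replicate 1 and OVA NP replicate 2. Of 559 refits of the interaction for 33 named genes, 486 kept the call and 73 lost it, and none turned its direction.

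Directions in the PP turned for 10 named genes, none of them called there. Their log2 fold changes ranged, over fits that left out 1 library, from -0.87 to 0.11 for *Il10*, -0.17 to 0.063 for *Bcl6*, -0.084 to 0.11 for *Gcsam*, -0.15 to 0.022 for *Osbpl3*, -0.092 to 0.15 for *Mki67*, -0.21 to 0.020 for *Cdca2*, -0.25 to 0.086 for *Ighg1*, -0.086 to 1.15 for *Hspa1a*, -0.010 to 0.057 for *Fam49a*, and -0.21 to 0.012 for *Hmgcs1*. *Fam49a* was at -0.0012 with all 18 libraries, *Gcsam* at 0.0059 without the low-count filter, and *Mki67* at -0.0082 with limma-voom, -0.0033 with all 18 libraries, and -0.0063 with the replicate block.

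The median log2 fold change of a gene list moved by more than the spread of the libraries, in fits that left out 1 library, for marginal zone B cell (0.018 to 0.13), B-1, memory and atypical B cell (0.12 to 0.21), plasma cell (0.056 to 0.18), MHC class II presentation (-0.19 to -0.11), MHC class I presentation (0.0053 to 0.054), study Breg genes higher with PBS in spleen (0.014 to 0.10), cytokine receptors, STATs and SOCS (-0.039 to 0.033), cholesterol synthesis (-0.31 to -0.15), integrated stress response (-0.14 to 0.018), glucocorticoid targets (-0.40 to -0.083), replication-dependent histones (-0.29 to -0.11), T cell (0.62 to 0.93), NK cell and innate lymphoid cell (0.31 to 0.63), dendritic cell (0.13 to 0.49), granulocyte and mast cell (0.71 to 1.40), erythroid cell (0.53 to 1.90), plasma cell markers (0.054 to 0.22), mast cell (1.43 to 1.76), and cytotoxic and intraepithelial lymphocyte (0.32 to 0.81). It was 1.34 for mast cell genes at 10 counts in each library. The mitochondrial difference stayed between 2.19 and 3.31 percentage points. The causes of these shifts were not tested. PBS replicate 2 had the lowest total count of the 6 libraries, and without it edgeR called 0 genes and DESeq2 141.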

Other observations

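Proteasome subunits, which degrade ubiquitinated proteins, had 6 of 37 genes above 0 in the PP and a median of -0.08 against 0.27 in the spleen. At an unadjusted *p* under 0.05, 4 were lower (5.4% of all genes), and 17 passed the interaction test (4.42% of all genes). Glycolysis genes had a PP median of -0.09 and a spleen median of 0.23, with 7 of 16 passing that test. Replication-dependent histones, whose mRNAs mostly lack poly(A) tails and are poorly captured by poly(A) selection, had medians of -0.17 and 0.59. Integrated stress response genes had medians of -0.07 and 0.36, and mitochondrial ribosomal proteins -0.05 and 0.16.

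Among antibody-secreting cell genes, 7 of 12 were above 0 in the PP with a median of 0.12, *Jchain* was the DESeq2 call, a shorter marker list had a median of 0.11, and heavy-chain constant regions with *Jchain* 0.10. Natural killer and innate lymphoid genes had 8 of 9 above 0 and a median of 0.40, dendritic cell genes 0.18, and 5 tested granulocyte and mast cell genes 0.91. The 2 tested erythroid genes had a median of 0.98 and were not called. The remaining lists had PP medians of -0.03 for Toll-like receptors and adaptors, -0.07 for costimulatory and inhibitory ligands, 0.05 for cytokines and regulatory effectors, -0.06 for survival genes, -0.01 for cytokine receptors and their signaling, 0.06 for p53 targets, -0.07 for clock genes, -0.31 for glucocorticoid targets, and -0.46 for the 2 cold-inducible genes.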
